A study of Mus musculus with 16 samples.

Results

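The HoxC cluster is a row of 9 homeobox genes on mouse chromosome 15. It was taken as the peaks that overlap the mm9 window chr15:102745000-102870000, which has Hoxc13 near its low end and Hoxc4 at its high end. Of 289751 peaks in all 24 lists, 91 met this window, 74 in lists against whole-cell extract and 17 in difference lists. RefSeq (GRCm38.p6) gives the order of the genes from the low to the high end as Hoxc13, Hoxc12, Hoxc11, Hoxc10, Hoxc9, Hoxc8, Hoxc6, Hoxc5 and Hoxc4, with the long non-coding RNA Hotair between Hoxc12 and Hoxc11, Mir196a-2 between Hoxc10 and Hoxc9, and Mir615 beside Hoxc5. That table has another build than mm9, so inside the window a peak is given by its position and not by a gene, and only the Hoxc13 end and the Hoxc4 end are named.

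The cells were lines of mouse MSCs (mesenchymal stem cells, stromal cells that can form bone, fat and cartilage) of C57BL/6 strain, immortalized and monoclonal, grown in serum. The KO group had the genotype Dicer -/- and the WT group Dicer f/f, a floxed but intact Dicer. Dicer is the enzyme that trims microRNA hairpins to their mature form. Each of 3 histone marks had 2 libraries per genotype, 12 in all, each with 2 peak lists, against whole-cell extract and against what was taken to be the other genotype (the difference list). A monoclonal line is the offspring of 1 cell, and the labels do not say how many clones stood behind the replicates, so p-values here measure only the spread between these samples, which may be technical. The lists hold no gene names, and the MSC label could not be checked against marker genes.

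Hox proteins are homeodomain transcription factors that give cells their position along the body axis, and the order of the genes on the chromosome follows the order of the body parts in which they act. Hoxc4, Hoxc5, Hoxc6 and Hoxc8 act in the neck and chest, Hoxc9, Hoxc10 and Hoxc11 further back towards the hindlimb, and Hoxc13 at the far end also acts in hair and nails. Fibroblasts keep such a pattern in culture. The silent part of a Hox cluster is covered by H3K27me3, which Polycomb repressive complex 2 lays down, while the active part carries H3K4me3 at promoters and H3K36me3 over transcribed gene bodies. The place where the silent part meets the active part is the border that was measured here.

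Both microRNA genes of the cluster depend on Dicer for their mature products, and 4 mature sequences of them are in RefSeq (GRCm38.p6, chromosome 15, plus strand). They are shown because they are products of this cluster that need Dicer to be made, and let-7a (chromosome 13, minus strand) is shown beside them because the title of the series names the let-7 family. Capitals mark the seed, bases 2 to 8, which pairs with target transcripts.
mmu-miR-196a-5p: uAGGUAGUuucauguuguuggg
mmu-miR-196a-2-3p: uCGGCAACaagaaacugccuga
mmu-miR-615-5p: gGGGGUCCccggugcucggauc
mmu-miR-615-3p: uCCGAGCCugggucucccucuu
mmu-let-7a-5p: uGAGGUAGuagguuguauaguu
The 4 mature sequences from the cluster have 4 distinct seeds. Within their first 9 bases, miR-196a-5p and let-7a-5p share a run of 7 bases, AGGUAGU, which starts at base 2 of miR-196a-5p and at base 3 of let-7a-5p. The lists hold no RNA, so the level of these microRNAs was not measured.

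H3K27me3 was confined to the low end of the window in every library that listed it, and it reached further into the cluster in both KO libraries. It covered 4.42 and 19.7 kb of the 125 kb window in KO replicates 1 and 2, against 0 and 1.79 kb in WT replicates 1 and 2. The genotypes did not overlap, and WT replicate 1 had no H3K27me3 peak in the window. In bulk libraries like these, a mark carried by more cells and a denser mark per cell cannot be told apart. Means were 12.04 ± 10.8 kb in KO against 0.896 ± 1.27 kb in WT (SD, n = 2 each), a difference of 11.1 kb with exact two-sided permutation p = 0.333, the smallest p that 2 libraries against 2 allow. KO replicate 2 sets much of this size: without it the difference was 3.53 kb. The list of KO replicate 1 was the shortest of the mark, with 706 peaks over 0.732 Mb in the genome, and 0.604% of that length lay in the window. KO replicate 2 had 17516 peaks over 34.4 Mb with 0.0572% of that length in the window, over 10 times below the share of KO replicate 1. WT replicate 2 had 14955 peaks over 37.9 Mb, and 0.00472% of that length lay there, while WT replicate 1 had 2562 peaks over 4.67 Mb and 0% there.

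**Figure D1:**
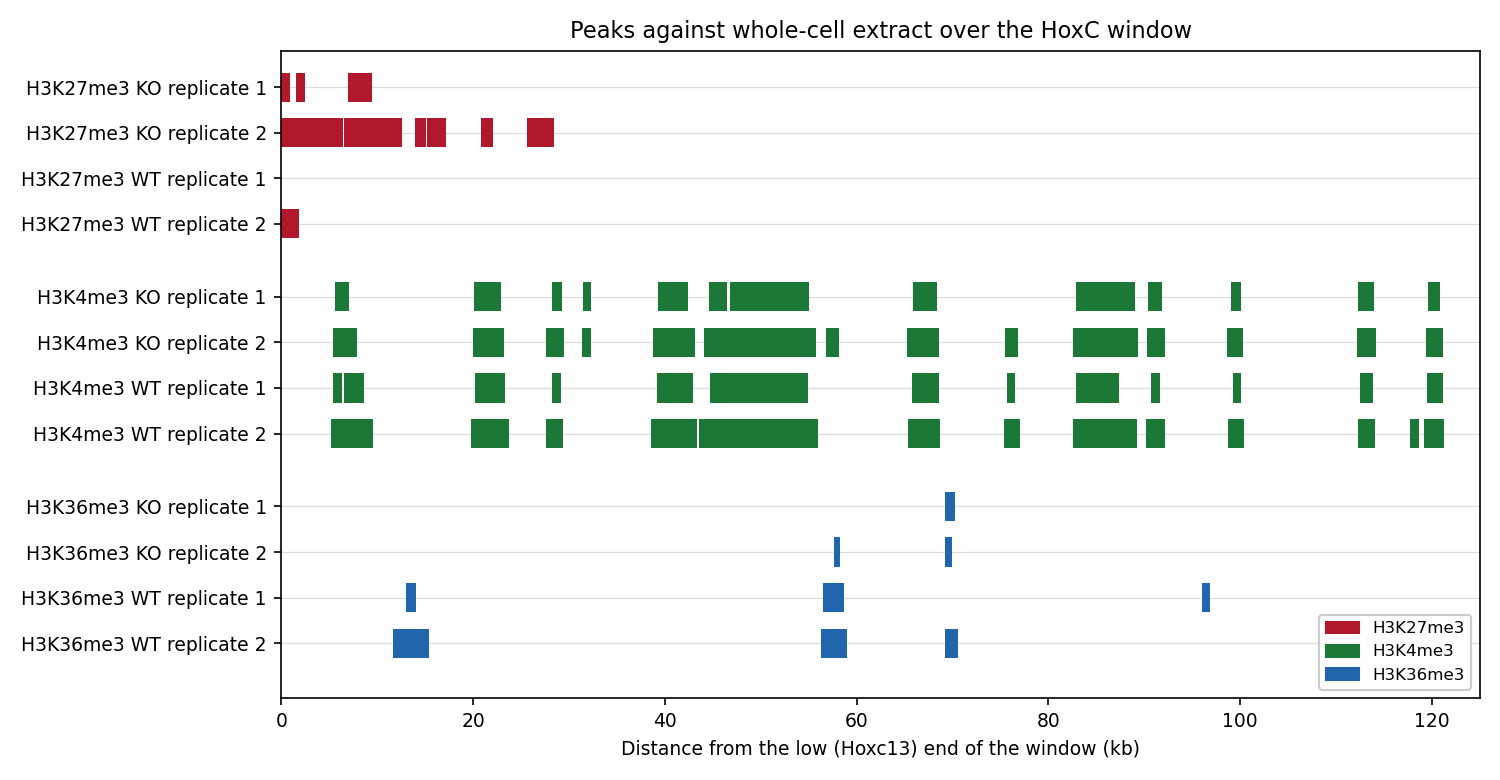
Peaks against whole-cell extract of the 12 libraries (rows, KO above WT within each mark) along the window, as distance in kb from its low (Hoxc13) end; each block is a peak. H3K27me3 sits at the low end, up to 9.47 and 28.4 kb in KO against 1.79 kb in WT replicate 2, while H3K4me3 blocks stand at much the same places in all 4 libraries.

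Over the window as a whole the genotypes overlapped in H3K4me3, and of 5 segments of 25 kb they parted in the lowest. H3K4me3 covered 33.6 and 44.9 kb of the window in KO and 34.0 and 47.5 kb in WT, with replicate 2 longer than replicate 1 in both genotypes. Means were 39.2 ± 8.02 kb in KO against 40.8 ± 9.58 kb in WT (SD, n = 2 each), and the difference of -1.51 kb was smaller than either SD (exact two-sided permutation p = 0.667). As a share of each list's own length, the window held 0.104% and 0.0853% in KO and 0.136% and 0.108% in WT, and on that scale both KO values lay below both WT values. In the lowest 25 kb of the window H3K4me3 covered 4.24 and 5.75 kb in KO against 6.25 and 8.27 kb in WT, and there the genotypes did not overlap. In each of the 4 further segments they did, for example with 3.04 and 4.08 kb in KO against 2.98 and 5.25 kb in WT in the segment at the Hoxc4 end. The lowest segment holds the lowest H3K4me3 region, described below, so its result is not separate from that of the region. How often the genotypes part in segments of this length over the genome was not tested.

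H3K36me3 was sparse over the cluster and shorter in KO. It covered 1.04 and 1.41 kb of the window in KO, against 4.06 and 7.85 kb in WT, without overlap of the genotypes. Means were 1.23 ± 0.262 kb in KO against 5.96 ± 2.68 kb in WT (SD, n = 2 each), a difference of -4.73 kb with exact two-sided permutation p = 0.333. Over the genome the H3K36me3 lists totalled 87.0 and 110.2 Mb for KO, against 108.2 and 176.6 Mb for WT, and there the genotypes overlapped, with the list of KO replicate 2 longer than that of WT replicate 1. Of single H3K36me3 regions of the genome, however, 22.7% were longer in both WT than in both KO libraries, a library without a peak counting as 0 bp. The part that list length has in the result was not tested. As a share of each list's own length, the window held 0.00120% and 0.00128% in KO and 0.00375% and 0.00445% in WT.

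**Figure D2:**
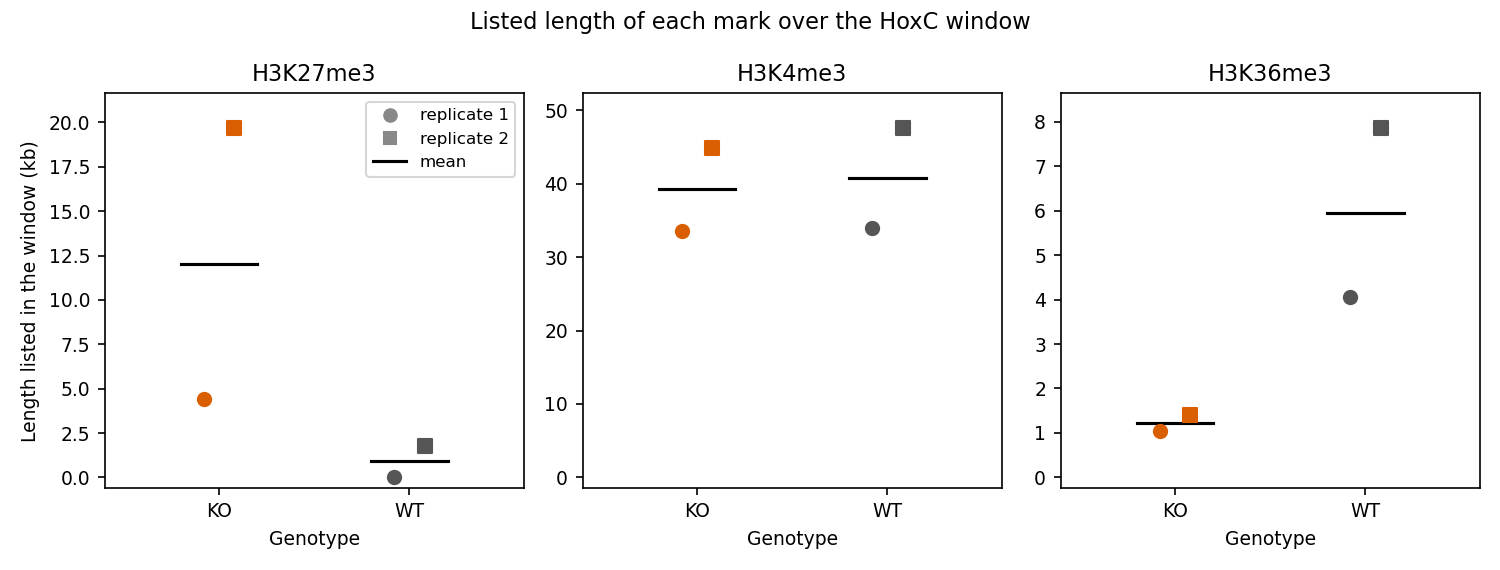
Length in kb that each library's list against whole-cell extract covers in the HoxC window, for H3K27me3, H3K4me3 and H3K36me3, with KO left of WT; circles are replicate 1, squares replicate 2 and lines the mean of 2. H3K27me3 is longer and H3K36me3 shorter in both KO libraries, while the H3K4me3 ranges of the genotypes overlap.

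To place differences, each mark's peaks against whole-cell extract were merged over all 4 libraries and the whole genome into regions, and a region that met a difference peak of the KO library of a replicate was called KO-higher there, and WT-higher for the WT library. The window held 6 H3K27me3, 15 H3K4me3 and 4 H3K36me3 regions. For H3K27me3, 2 of 6 regions were KO-higher in replicate 1, 5 in replicate 2 and 1 in both, where 0.404%, 13.6% and 0.171% of all 24016 H3K27me3 regions were. For H3K4me3, 4 of 15 regions were WT-higher in replicate 1, 1 in replicate 2 and 1 in both, against 7.19%, 5.07% and 1.12% of all 25204 regions. For H3K36me3, 3 of 4 regions were WT-higher in replicate 1, 2 in replicate 2 and 2 in both, against 5.76%, 8.42% and 1.24% of all 39794 regions. Calls in the opposite direction numbered 0 for each mark. Over the genome, 4.03%, 21% and 3.76% of H3K27me3 regions were WT-higher in replicate 1, in replicate 2 and in both, while 20.7%, 23.8% and 10.8% of H3K4me3 regions and 4.23%, 2.31% and 0.668% of H3K36me3 regions were KO-higher. Of the 6 H3K27me3 regions, 4 were listed in KO replicate 2 alone. The H3K36me3 region chr15:102756667-102760399 was listed in WT libraries only, and chr15:102840987-102841828 in WT replicate 1 alone. Calls for the listing genotype are thus partly built into the counts. Shares of calls among regions of the genome listed in the same libraries were not counted, so no enrichment is read from the counts. Scores of the peaks are the authors' own and are used only to rank peaks within a list.

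At the Hoxc13 end, all 3 marks were called in both replicates, H3K36me3 in replicate 1 on a weak peak. The H3K27me3 region chr15:102751479-102757571 held 2547 and 6093 bp of H3K27me3 in KO, against 0 bp in both WT libraries. Over the genome, 0.483% of all H3K27me3 regions were longer in both KO than in both WT libraries, a library without a peak counting as 0 bp. To be so, a region must hold a peak of KO replicate 1, whose list had only 706 peaks. Few of the 24016 regions could therefore qualify, and the low share does not by itself make this region rare. The region was KO-higher in both replicates, and in the lists against whole-cell extract its peak outscored 99.4% of all peaks of KO replicate 1 and 99.8% of those of KO replicate 2.

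The lowest H3K4me3 region, chr15:102750192-102754530, overlaps that H3K27me3 region. H3K4me3 covered 1474 and 2424 bp of it in KO, against 3060 and 4339 bp in WT, so both KO values lay below both WT values. The difference was -1750.5 bp (SD 672 bp in KO against 904 bp in WT, n = 2 each, exact two-sided permutation p = 0.333). With values parted in this way, that p could only be the smallest that 2 libraries against 2 allow, so it adds no support. Over the genome, 0.586% of the 11100 H3K4me3 regions listed in all 4 libraries were longer in both WT than in both KO libraries. The region was WT-higher in both replicates, with difference peaks that outscored 94.6% and 87.0% of the difference lists of WT replicates 1 and 2. In KO replicate 1 its H3K4me3 peak outscored only 6.81% of that list, while WT replicate 1 had a peak here that outscored 45.6% of its list. In replicate 2 the KO and WT peaks both had the score 3100, which many of the strongest peaks share.

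Most of the difference lay on the side towards the rest of the cluster. The high edge of this H3K4me3 region stood at 102752069 and 102752841 in KO, against 102753610 and 102754530 in WT, a mean difference of -1615 bp (SD 546 bp in KO against 651 bp in WT, n = 2 each, exact two-sided permutation p = 0.333). Its low edge stood at 102750596 and 102750418 in KO and at 102750405 and 102750192 in WT. That is 208.5 bp higher in KO on average (SD 126 bp in KO against 151 bp in WT, n = 2 each, exact two-sided permutation p = 0.333). The genotypes did not overlap at either edge. Edges were compared in this region only, and the share of H3K4me3 regions of the genome whose edges part in this way was not counted. The edges are not a separate result from the covered length, which follows largely from them. H3K27me3 lay over 147 and 2326 bp of these H3K4me3 peaks in the KO libraries, against 0 bp in either WT library. Peaks of a bulk library do not tell whether both marks sat on the same chromosome copies or in different cells.

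The lowest H3K36me3 region, chr15:102756667-102760399, follows within the same stretch. H3K36me3 covered 0 bp of it in both KO libraries, against 1036 and 3733 bp in WT. Such a pattern is common for this mark, since 22.7% of all H3K36me3 regions of the genome were longer in both WT than in both KO libraries. The region was WT-higher in both replicates. In WT replicate 1 the call rests on a peak that outscored only 16.1% of the list against whole-cell extract, and its difference peak outscored 56.5% of that list. In WT replicate 2 these shares were 73.9% and 98.2%. With scores of at least 160 the call in replicate 1 was lost. H3K27me3 covered 0 and 2232 bp of it in KO and 0 bp in both WT libraries. In KO replicate 2 part of the region thus carried H3K27me3, and both WT libraries listed H3K36me3 in it. H3K27me3 and H3K36me3 shared 0 bp of the window in any library.

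**Figure D3:**
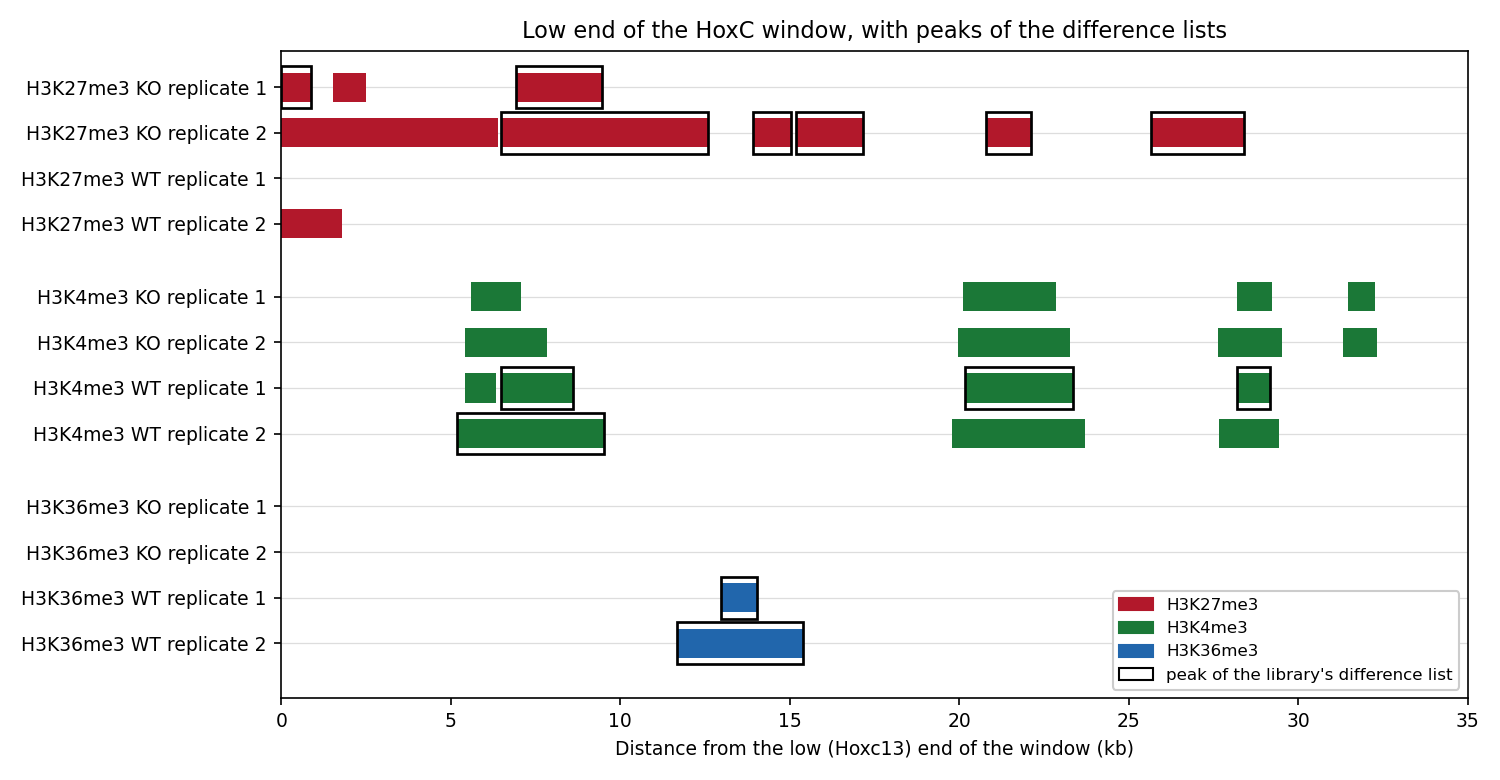
The lowest 35 kb of the window, with peaks against whole-cell extract as filled blocks and peaks of the same library's difference list as black outlines, KO rows above WT rows. Outlined H3K27me3 blocks occur only in KO rows, and outlined H3K4me3 and H3K36me3 blocks only in WT rows.

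Over the genome this combination occurred once. Of 283 H3K4me3 regions that were WT-higher in both replicates, 1 overlapped an H3K27me3 region that was KO-higher in both, and it is the region at the Hoxc13 end. It also had a WT-higher H3K36me3 region within 10 kb. H3K27me3 regions KO-higher in both replicates numbered 41 in all, and only 97 were KO-higher in replicate 1, whose KO list is the short one, so few places could be counted. In the reverse direction, 44 of 2734 H3K4me3 regions KO-higher in both replicates overlapped H3K27me3 that was WT-higher in both. The shares of all 25204 H3K4me3 regions that overlap H3K27me3 of either call were not counted. Whether 1 of 283 or 44 of 2734 departs from these shares was therefore not tested.

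Beyond the Hoxc13 end, H3K27me3 in the window was listed in KO replicate 2 alone. It had 4 regions there, chr15:102758919-102760033, chr15:102760188-102762170, chr15:102765788-102767123 and chr15:102770643-102773401, of 1115, 1983, 1336 and 2759 bp, and each was KO-higher in replicate 2. KO replicate 1 and both WT libraries had 0 bp in all 4. The remaining H3K27me3 region, chr15:102725298-102751380, runs out of the window on the low side. It was covered over 5625 and 26083 bp in KO against 0 and 4574 bp in WT, and it was KO-higher in replicate 1 only.

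The border between H3K27me3 and the active marks was placed at the position that leaves the fewest bases of either mark on the wrong side. Where a run of positions did equally well, its midpoint is given. Between H3K27me3 and H3K4me3 it stood at 102759784 in KO replicate 1 (run 102754469 to 102765100) and at 102773020 in KO replicate 2 (run 102772640 to 102773401). In WT replicate 2 it stood at 102748491 (run 102746791 to 102750191), and WT replicate 1 had no H3K27me3 peak in the window and so no border. Both KO borders lay deeper in the cluster than the WT border, at 14.8 and 28.0 kb from the low end of the window against 3.49 kb.

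The marks overlapped around the border in KO replicate 2 and were parted in WT replicate 2, while in KO replicate 1 the border lay in a run free of both marks. The KO borders left 1474 and 6510 bp on the wrong side, where H3K4me3 peaks stood within the stretch of H3K27me3, and the WT replicate 2 border left 0 bp. In KO replicate 1 the marks shared 147 bp in the window, all of it in the lowest H3K4me3 region, below the run. The next best border of KO replicate 1 was at 102749048, or 4.05 kb from the low end, close to the WT border, and left 1073 bp more on the wrong side. In KO replicate 2 the choice was nearly even, since a border at 102763558, or 18.6 kb from the low end, left only 9 bp more on the wrong side. The mean was 21.4 ± 9.36 kb in KO (SD, n = 2) and 3.49 kb in WT (n = 1), 17.9 kb apart, and no test was made with 1 WT value. With an edge rule, which takes the midpoint between the high edge of the last H3K27me3 peak and the low edge of the first H3K4me3 peak, the distance was 8.73 kb. Without KO replicate 1 the distance was 24.5 kb and without KO replicate 2 it was 11.3 kb.

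Between H3K27me3 and H3K36me3 the border stood at 102784357 in KO replicate 1 (run 102754469 to 102814245), at 102788008 in KO replicate 2 (run 102773401 to 102802615) and at 102751728 in WT replicate 2 (run 102746791 to 102756666). These are 39.4 and 43.0 kb from the low end in KO and 6.73 kb in WT. The KO runs are wide because few H3K36me3 peaks were listed, so the midpoints are loose and the edges say more. The lowest H3K36me3 peak in the window started at 102814246 and 102802616 in KO, against 102757982 and 102756667 in WT. The highest H3K27me3 peak ended at 102754469 and 102773401 in KO and at 102746791 in WT replicate 2.

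**Figure D4:**
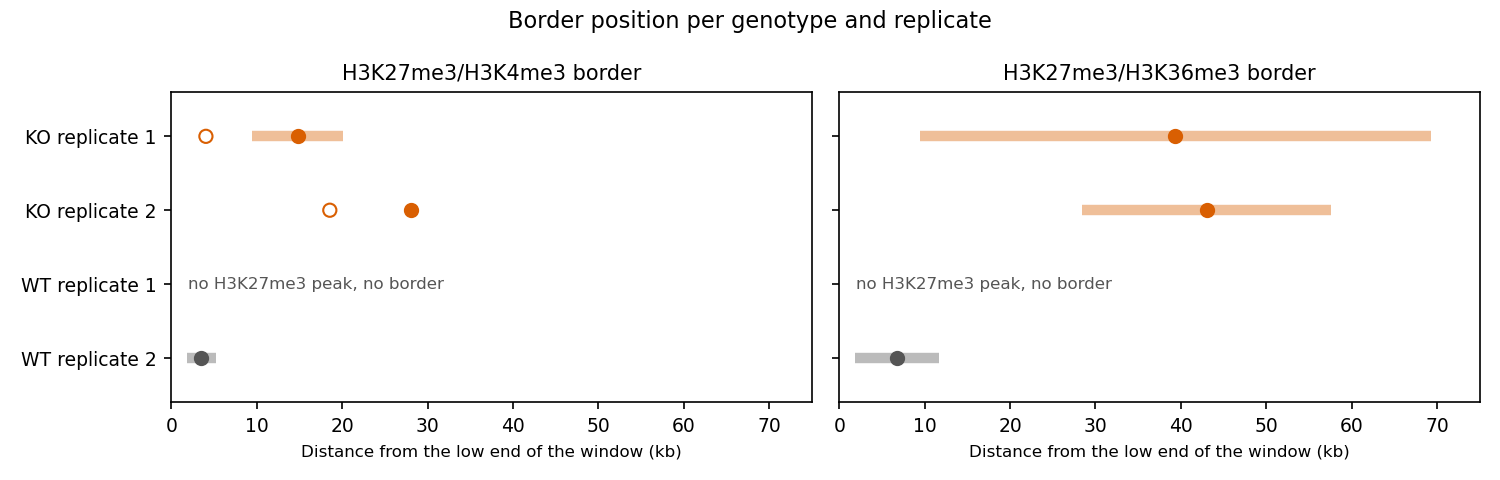
Border positions per genotype and replicate, as distance in kb from the low end of the window, for H3K27me3 against H3K4me3 (left panel) and against H3K36me3 (right panel), KO above WT. Filled points are the chosen borders, bars the runs of equally good positions and open circles the next best border; KO lies at 14.8 and 28.0 kb and WT replicate 2 at 3.49 kb in the left panel.

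From the Hoxc13 end towards the middle, H3K4me3 was called in replicate 1 only, and beyond 43.3 kb from the low end it was not called. The next region, chr15:102764778-102768705, was covered over 2762 and 3325 bp in KO against 3189 and 3928 bp in WT, ranges that overlap. It was WT-higher in replicate 1 only, with a difference peak that outscored 36.6% of that list. The region chr15:102772641-102774509 was covered over 1042 and 1869 bp in KO against 972 and 1773 bp in WT, and chr15:102783534-102788302 over 3183 and 4344 bp in KO against 3721 and 4769 bp in WT. Both were WT-higher in replicate 1 only, with difference peaks that outscored 45.5% and 12.3% of the list, and in both the genotypes overlapped.

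A short region stood out the other way. At chr15:102776315-102777332 H3K4me3 covered 805 and 1018 bp in KO against 0 bp in both WT libraries, yet no difference list held a peak there. Its KO peaks outscored only 3.98% and 26.7% of their lists, and 12.8% of all H3K4me3 regions of the genome were longer in both KO than in both WT libraries.

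The middle and the Hoxc4 end carried H3K4me3 in both genotypes. The widest region of the window, chr15:102788576-102800923, was covered over 10086 and 11761 bp in KO against 10248 and 12348 bp in WT. The next widest, chr15:102827544-102834311, was covered over 6166 and 6743 bp in KO against 4474 and 6727 bp in WT. At the Hoxc4 end, chr15:102864203-102866307 was covered over 1304 and 1849 bp in KO against 1567 and 2105 bp in WT. Genotypes overlapped in all 3, and none of these regions held a difference peak.

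Of the 15 H3K4me3 regions, 11 were listed in all 4 libraries, where 44.0% of all H3K4me3 regions of the genome were. Among these 11, the region at the Hoxc13 end was the only one in which the genotypes did not overlap, where 6.46% of the 11100 such regions of the genome did not overlap in either direction, so that 1 of 11 is near the share over the genome. Of the 11, 10 were longer in both replicates 2 than in both replicates 1. The 11 regions with no call in any list spanned 908 to 12348 bp. Among them, chr15:102801774-102803164 was listed in KO replicate 2 alone (1391 bp), chr15:102862763-102863670 in WT replicate 2 alone (908 bp), and chr15:102820334-102822032 in all but KO replicate 1 (1390 bp in KO replicate 2, 779 and 1699 bp in WT).

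**Figure D5:**
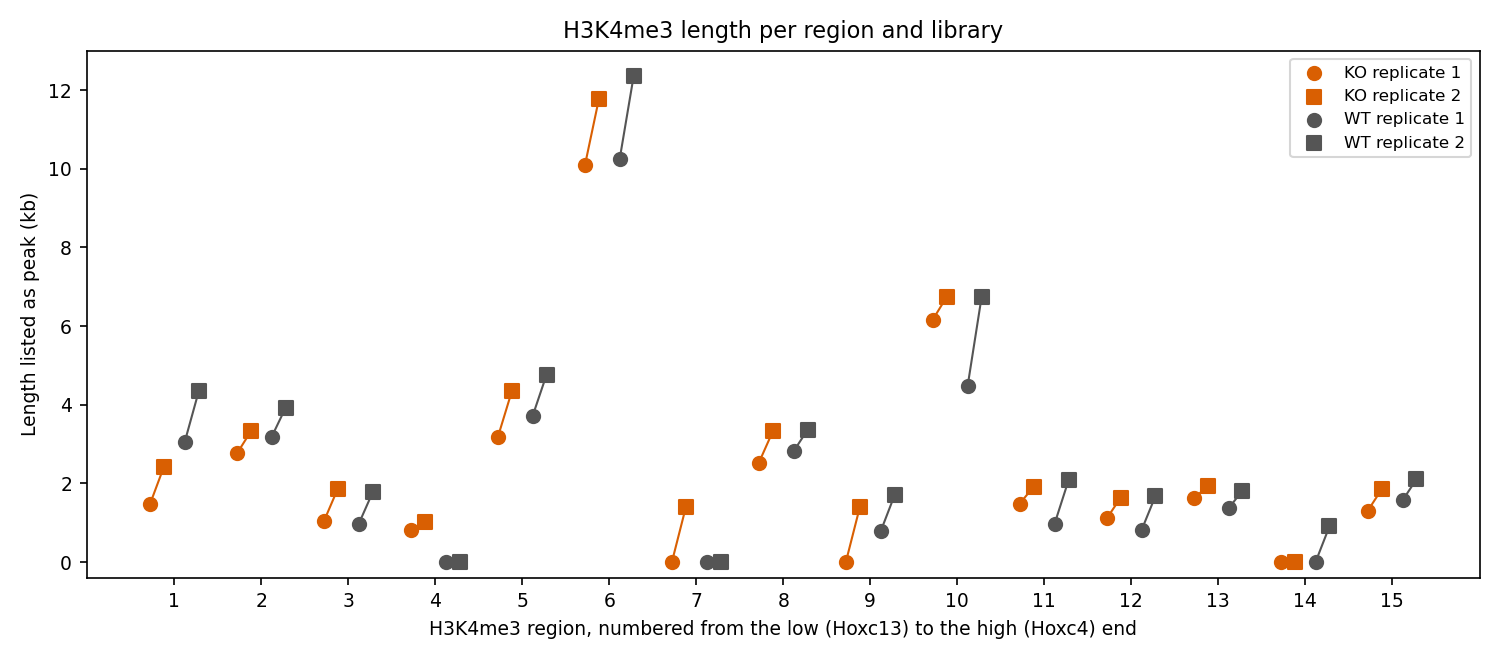
Length in kb that each library lists as H3K4me3 peak in the 15 merged regions of the window, numbered from the Hoxc13 to the Hoxc4 end, with KO left of WT; circles are replicate 1, squares replicate 2, and lines join replicates of a genotype. Only in regions 1 and 4 do the genotypes' values lie apart, with region 1 longer in WT and region 4 listed in KO alone.

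In the middle of the cluster H3K36me3 differed at a second place. The region chr15:102801243-102803993 was covered over 0 and 678 bp in KO, against 2184 and 2751 bp in WT, and it was WT-higher in both replicates. Both KO values lay below both WT values, as in the 22.7% of H3K36me3 regions given above, and no library had H3K27me3 there. KO replicate 2 listed 1391 bp of H3K4me3 in this region and the other libraries 0 bp. The region chr15:102814215-102815582 was covered over 1044 and 736 bp in KO against 0 and 1368 bp in WT and held no difference peak, so the genotypes overlapped. The region chr15:102840987-102841828 was listed in WT replicate 1 alone, over 842 bp, and was WT-higher in that replicate.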

How the data were processed

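Per the submitters' processing notes, Bowtie 0.12.7 placed the reads on mm9 and MACS called the peaks. For each ChIP library the authors deposited a pair of peak lists, 24 in all, with replicates not pooled. The authors' score of a peak is at least 80.00, and neither its formula nor the version of MACS is given in the sources used here. The 4 whole-cell extract samples had no list of their own here.

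No header names the control of the difference lists. They were read, as an assumption, as calls against the other genotype of the same mark. Per list, 74.6% to 97.8% of difference peaks, and all 17 in the window, repeated the exact coordinates of that library's peaks against whole-cell extract. This ties each difference list to its library, but it could also hold under another control and so does not name the control. The direction of all calls depends on this reading.

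Read counts and depth are unknown, so list lengths also follow depth and enrichment, which could not be removed. Lists were merged on chromosomes 1 to 19 and X (overlap of at least 1 bp) with Python 3.11.15. Covered lengths were compared by an exact permutation test over 6 splits of 4 libraries. The interval functions were tested on simulated data. Named regions are all those with a difference peak in the window, and other regions are given as counts or singled out after their values were seen. The members, the window and these lists were chosen with earlier results of these data known.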

Additional observations from a re-analysis of the deposited data

How the results depend on the processing

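The direction of the covered lengths of H3K27me3 and H3K36me3 held under every alternative run (score of at least 160, a window extended by 25 kb, percent of the list's length, each replicate left out). With 1 replicate left out, the H3K27me3 difference ranged from 3.53 to 18.8 kb and the H3K36me3 difference from -6.62 to -2.83 kb, while the H3K4me3 difference ranged from -8.29 to 5.26 kb and changed sign without KO replicate 1 (4.16 kb) and without WT replicate 2 (5.26 kb). H3K27me3 regions KO-higher numbered 2 to 5 when a single replicate was used in place of both, H3K4me3 regions WT-higher 1 to 4 and H3K36me3 regions WT-higher 2 to 3. In the window extended by 25 kb, H3K4me3 regions WT-higher in both replicates numbered 2. With scores of at least 160, H3K36me3 regions WT-higher in both numbered 1, and the one lost is at the Hoxc13 end. The H3K27me3/H3K36me3 border differed by 34.5 kb, and by 87.95 kb in the extended window, where H3K27me3 peaks of KO replicate 2 above the cluster outweigh its H3K36me3. With scores of at least 160 it gave no value, since no KO library then had H3K36me3 in the window, and neither border had a value without WT replicate 2. The H3K27me3/H3K4me3 border differed by 8.73 kb under the edge rule and by 13.2 kb with scores of at least 160.

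The labels do not say that equal numbers pair samples. Deviations of replicate 1 from its genotype's mean correlated between KO and WT over regions listed in all 4 libraries (r = 0.650 for H3K27me3, 0.564 for H3K4me3 and 0.255 for H3K36me3), but 2 pairs are too few to take them as paired. With the replicate block the mean differences were 11.1, -1.51 and -4.73 kb for H3K27me3, H3K4me3 and H3K36me3, each with exact sign-flip p = 0.5, the smallest that 2 pairs allow. The borders in replicate 2, the only number with both genotypes, differed by 24.5 and 36.3 kb. No list gives depth, so absence from a list does not show absence of the mark.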

Other observations

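In the 25 kb below the window, at the Hoxc13 end, H3K27me3 covered 3.75 and 19.7 kb in KO, against 0 and 2.78 kb in WT, without overlap of the genotypes. These bases belong to the region chr15:102725298-102751380, which runs on into the window and was KO-higher in replicate 1 only. The part of that region inside the window was counted there and is not among them. The share of 25 kb stretches of the genome that part in this way was not tested. No library listed H3K36me3 in these 25 kb. The H3K4me3 region chr15:102739848-102741817, which lies 3.18 kb below the window, held 0 and 1201 bp of the mark in KO against 775 and 1970 bp in WT, and it was WT-higher in both replicates. Its genotypes overlapped. Above the Hoxc4 end, in the next 25 kb, KO replicate 2 listed 4.85 kb of H3K27me3 and the other libraries none, and no library listed H3K4me3 or H3K36me3 there. The nearest H3K36me3 regions stood 195.8 kb below and 114.3 kb above the window and were listed in WT replicate 2 alone.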
